A study of Mus musculus with 2 samples.

Results

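Wnt signalling genes were followed in mouse bone marrow progenitors with floxed Cebpa, the gene of the myeloid transcription factor C/EBPα, after 4-hydroxytamoxifen (4OHT). The set held 61 genes among the 23309 rows of the deposited table, chosen by symbol: 19 Wnt ligands, 10 Frizzled receptors, the co-receptors Lrp5 and Lrp6, Lgr4, Lgr5 and Znrf3, 8 secreted inhibitors of the Dkk and Sfrp families, the Dvl and Nkd genes, the beta-catenin destruction complex with Ctnnb1, the TCF/LEF factors and the Tle co-repressors. The rule itself used names only, but it was set with earlier results of these data known. After 4OHT the ligand gene Wnt9b fell 21.6-fold, from 2.50 to 0.116 FPKM, and the receptor gene Fzd5 rose 2.49-fold, from 0.471 to 1.17 FPKM. The other 19 tested members did not pass the authors' test.

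Cells of both groups were lineage-depleted marrow cells with floxed Cebpa and CreER (genotype Cebpaf/f;CreER), in which 4OHT activates the Cre recombinase. All had been transduced with retroviral HA-tagged Hoxa9 and Flag-tagged Meis1, homeodomain proteins that together transform such cells, and were kept in interleukin-3. The 4OHT group received 5 nM 4OHT for 72 h, and the vehicle group received ethanol for 72 h. There was 1 deposited RNA-seq sample per group, each joining 2 replicates, so each gene has a single value per group, in FPKM (fragments scaled by transcript length and by sequencing depth), without a spread over replicates. No 4OHT-treated cells without the floxed alleles were analysed here, so loss of Cebpa and other effects of 4OHT or Cre cannot be told apart. No read counts are given, so the depth behind a value is unknown.

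In the canonical branch of the pathway, a secreted Wnt protein binds a Frizzled receptor together with Lrp5 or Lrp6, and Dishevelled proteins then hold back the complex of Axin, Apc and Gsk3b that marks beta-catenin for destruction. Beta-catenin that escapes enters the nucleus, joins TCF/LEF factors and displaces Tle (Groucho) co-repressors. Other branches act through planar cell polarity proteins or calcium. In blood, Wnt signals are known from stem cell maintenance and T cell development, and in mouse models of acute myeloid leukaemia driven by Hoxa9 and Meis1, beta-catenin is known to be needed by leukaemia stem cells.

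The promoters of the called genes, Wnt9b and Fzd5, are shown because these are the members whose transcripts changed. RefSeq's promoter table on GRCm38.p6 matched 43 of the 61 members by symbol, with 54 start sites. The 250 bases before the annotated start are printed on the gene's own strand, and capitals mark matches, on either strand, to the CCAAT box letters, CCAAT, or to a TATA-like run, TTTAAA. The Wnt9b stretch is chr11:103749822-103750071 and the Fzd5 stretch is chr1:64737751-64738000, both on the minus strand.
Wnt9b: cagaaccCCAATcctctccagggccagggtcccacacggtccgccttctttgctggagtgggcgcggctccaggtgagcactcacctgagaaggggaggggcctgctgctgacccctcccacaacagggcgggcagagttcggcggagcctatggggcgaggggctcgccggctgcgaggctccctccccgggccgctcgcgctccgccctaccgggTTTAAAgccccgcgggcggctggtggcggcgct
Fzd5: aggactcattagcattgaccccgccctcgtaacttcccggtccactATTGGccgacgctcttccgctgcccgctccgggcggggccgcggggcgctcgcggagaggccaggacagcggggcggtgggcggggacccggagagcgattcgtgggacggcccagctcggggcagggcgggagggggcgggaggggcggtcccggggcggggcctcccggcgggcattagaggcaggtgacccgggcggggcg
Both stretches were rich in G and C, at 72.0% for Wnt9b and 76.4% for Fzd5, against a median of 52.4% over 32851 promoters. Each held 1 CCAAT match, a sequence found in 33.8% of all promoters, at 243 to 239 bases before the start in Wnt9b and at 204 to 200 in Fzd5. Wnt9b also held the run TTTAAA at 33 to 28 bases before the start, which was looked for after the promoter had been seen and stands in 12.1% of all promoters. Neither window held the C/EBP palindrome TTGCGCAA (0.164% of all promoters), its relaxed form TTNNGNAA (36.8%) or the TCF/LEF sequence CTTTGAT (3.21%). Nor did either hold the PBX-HOXA9 sequence TGATTTAT (0.837%), the MEIS sequence TGACAG (15.9%) or the TATA box, as TATAAA (12.4%). All 8 sequences were searched on both strands, and no marked matches overlapped.

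The targeted gene and the transgenes were read first. Cebpa fell to 42.8 FPKM after 4OHT, against 109 FPKM in vehicle cells, with q = 0.00165 in the authors' deposited table. That was 39.2% of the vehicle level, so the Cebpa transcript was lowered and not absent in the bulk sample. Hoxa9 had 868 and 1010.1 FPKM and Meis1 155 and 162 FPKM in 4OHT and vehicle cells, and neither was called. Markers fixed for other cell types were read beside these. Of 6 T cell genes none reached 1 FPKM, 3 were listed at 0 in both groups, and their sum was 0.0590 FPKM after 4OHT and 0.0856 FPKM in vehicle cells. Of 9 stromal genes 8 stayed below 1 FPKM, with Col3a1, Dcn and Lum listed at 0 in both groups. The exception was Pdgfrb, which rose to 13.3 FPKM after 4OHT, against 6.62 FPKM in vehicle cells, and among the low genes Lepr fell to 0.283 FPKM, against 0.678 FPKM in vehicle cells. In the endothelial and osteoblast lists, of 5 genes each, Pecam1 and Runx2, both also expressed in blood cells, were the genes above 1 FPKM. Among 6 B cell genes Ebf1 alone did so, and it rose to 1.54 FPKM after 4OHT, against 0.754 FPKM in vehicle cells. Of 4 matched erythroid genes, Gata1 alone reached 1 FPKM, with 1.23 FPKM after 4OHT and 0.609 FPKM in vehicle cells, and it was not called.

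Most members of the set lay below 1 FPKM in both groups. Of the 61 members, 19 reached at least 1 FPKM in the higher group and are called measured here, and 21 were tested by the authors. Of the 42 below that level, 11 lay between 0.1 and 1 FPKM, 23 were detected below 0.1 FPKM, and 8 were listed at 0 in both groups. The measured genes were Wnt2 and Wnt9b, Fzd5 and Fzd7, Lrp5 and Lrp6, Znrf3 and 12 intracellular genes, while 17 of 19 ligands, 8 of 10 Frizzled genes, all 4 TCF/LEF genes and all 8 secreted inhibitors were under 1 FPKM.

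**Figure D1:**
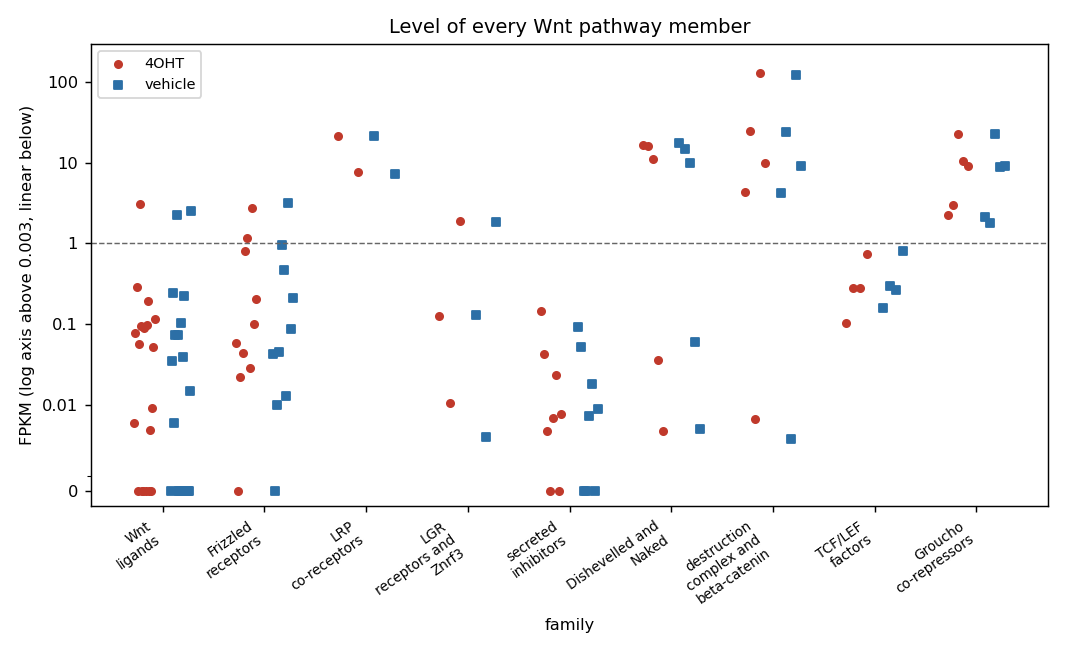
FPKM of all 61 members in 4OHT cells (red circles) and vehicle cells (blue squares), by family, on an axis that is logarithmic above 0.003 and linear below it. Each point is 1 gene in 1 sample, and the dashed line marks 1 FPKM. The destruction complex family reaches the highest level, with Ctnnb1 at 132 FPKM in 4OHT cells and 125 FPKM in vehicle cells, and the secreted inhibitors lie wholly below the line.

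Calls were read from the authors' deposited table: status OK together with q under 0.05. By that rule 1 member rose and 1 fell, 9.52% of the 21 tested, where 5.91% of all 11953 tested rows were called (2.8% higher and 3.11% lower). Both called members lay between 1 and 5 FPKM, where 2 of 8 tested members were called, against 8.79% of all tested rows at that level. None of the 11 tested members of at least 5 FPKM was called, nor either of the pair below 1 FPKM, where 7.15% of all tested rows were. Among rows of 5 to 20 FPKM 5.36% were called, and above that 4.76%. At q under 0.01 the same members were called, with 3.84% of all tested rows, and at q under 0.1 Tle2 joined them, with 7.08%. The second flag in the deposited table kept both (5.26% of tested rows), and a rule of 1.5-fold on FPKM + 1 kept Wnt9b alone (5.49% of measured rows). With so few members called, these shares give no result about the set as a whole.

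The measured members' median log2((4OHT FPKM + 1)/(vehicle FPKM + 1)) was 0.06, against 0.00 for all 10989 measured rows. The pseudocount of 1 FPKM in that ratio makes the changes of low genes look smaller. The ratio was above 0 in 14 members and below 0 in 5. In 15 of 19 members (78.9%) the ratio lay within 0.25 of no change, as it did in 80.4% of all measured rows. It lay beyond 0.5 in 3 members, Wnt9b, Fzd5 and Tle2, or 15.8% of the measured members, and in 7.27% of all measured rows. Wnt9b and Fzd5 reached 1 FPKM only in the group where they were higher. A count of 3 gives no result about the set.

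**Figure D2:**
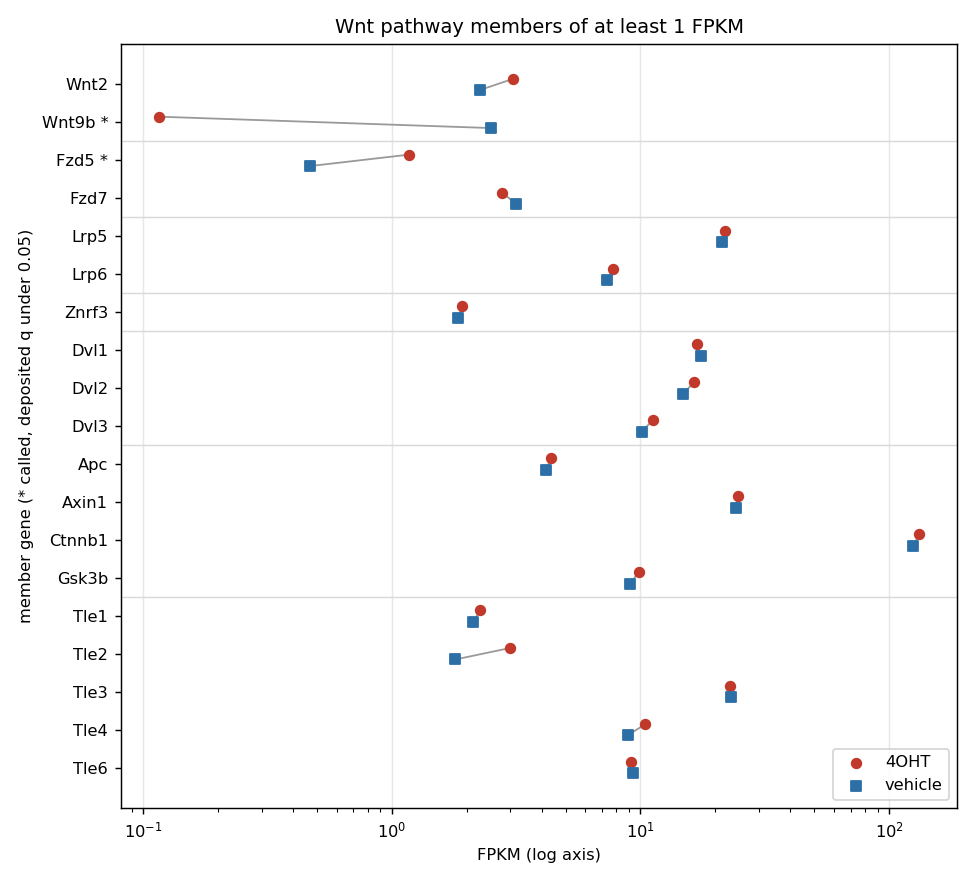
FPKM on a log axis of the 19 members of at least 1 FPKM, with 4OHT as red circles above vehicle as blue squares, 1 value each, and families parted by grey lines. Asterisks mark the called genes: Wnt9b lies at 0.116 FPKM in 4OHT cells and 2.50 FPKM in vehicle cells, Fzd5 at 1.17 and 0.471 FPKM, and most other pairs nearly coincide.

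Among the ligands, Wnt9b, known for its role in the development of the kidney tubules, carried the largest change of the 21 tested members. Wnt9b fell to 0.116 FPKM after 4OHT, against 2.50 FPKM in vehicle cells, at q = 0.00165 in the authors' deposited table, where no q is smaller. By the ratio of FPKM values it ranked 7 among the 372 rows called lower, and by the log2 ratio with the pseudocount, -1.65, it ranked 24. Its ratio of FPKM values exceeded that of Cebpa, which was 2.55-fold lower after 4OHT, but rests on the low value of 0.116 FPKM. With the pseudocount the log2 ratios were closer, at -1.65 for Wnt9b and -1.33 for Cebpa. In these bulk samples, fewer cells of a type and less RNA per cell cannot be told apart. The fall ran alongside that of mature myeloid markers: of 5 neutrophil genes 3 fell, with a list sum of 7.04 FPKM after 4OHT and 22.9 FPKM in vehicle cells. Ltf and Camp, which mark late neutrophil granules, were below 1 FPKM. Of 5 monocyte genes Cd14, Ly6c2 and Itgam fell, while Csf1r and Ccr2 were not called. The monocyte list summed to 436 FPKM after 4OHT and 717 FPKM in vehicle cells, of which Ly6c2 gave 323 and 551 FPKM. Of 5 progenitor genes Cd34, Kit and Flt3 rose. Over all tested rows 3.11% were called lower and 2.8% higher. The progenitor list summed to 1572 FPKM after 4OHT and 1486 FPKM in vehicle cells, most of it from Hoxa9 and Meis1, whose transduced and resident copies the rows do not separate, and without those to 549 and 314 FPKM. The part of these markers in the fall of Wnt9b, or in the rise of Fzd5, was not tested.

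The Wnt9b row spans chromosome 11 of mm9 from 103588677 to 103611135, and no tested neighbour was called with it. Within 200 kb lay 6 other rows, of which 2 were tested. Gosr2, a Golgi SNARE gene 29.7 kb away, had 50.4 FPKM after 4OHT and 54.0 FPKM in vehicle cells. Nsf, the ATPase that takes SNARE complexes apart, lies 72.0 kb away and had 33.9 and 32.1 FPKM in 4OHT and vehicle cells. Wnt3, the adjacent ligand gene 24.4 kb away, was listed at 0 in both groups, as were the remaining 3 rows.

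Wnt2, a ligand known from lung and vessel development, was the other measured ligand. It had 3.08 FPKM after 4OHT and 2.26 FPKM in vehicle cells, a ratio of 1.37, and q = 0.569 in the authors' deposited table. The 2 ligands stood at like levels in vehicle cells, and after 4OHT Wnt2 lay well above Wnt9b. Of the summed ligand FPKM, 4.17 in 4OHT cells and 5.57 in vehicle cells, Wnt9b made up 2.78% after 4OHT and 44.9% in vehicle cells. Wnt2 made up 73.9% and 40.6% in the same order.

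The other 17 ligands summed to 0.971 FPKM after 4OHT and 0.808 FPKM in vehicle cells, and none was tested by the authors. The highest was Wnt10b, a ligand that haematopoietic cells are known to make, with 0.289 FPKM after 4OHT and 0.242 FPKM in vehicle cells. Wnt6 had 0.195 and 0.222 FPKM and Wnt4 0.0903 and 0.103 FPKM in 4OHT and vehicle cells. Wnt9a, the closest relative of Wnt9b, had 0.0518 FPKM after 4OHT and 0.0146 FPKM in vehicle cells. Wnt3, Wnt3a, Wnt5a, Wnt7a and Wnt8a were listed at 0 in both groups, and Wnt1, Wnt7b, Wnt8b and Wnt11 at 0 in a single group. Wnt5b, Wnt10a, Wnt2b and Wnt16 were detected below 0.1 FPKM in both groups.

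**Figure D3:**
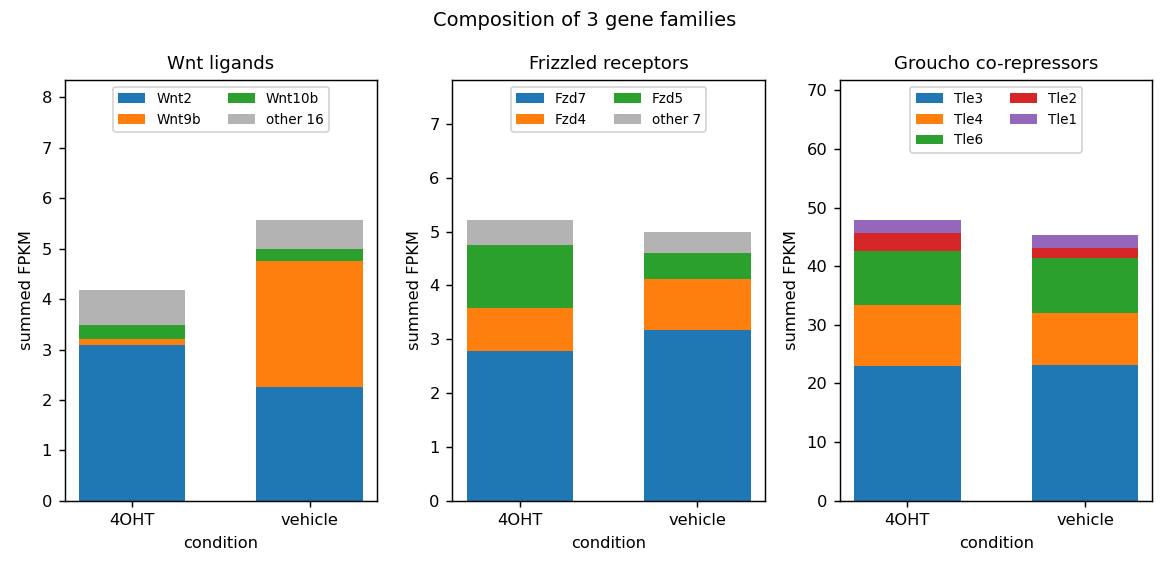
Summed FPKM of the Wnt ligand, Frizzled and Tle families in 4OHT cells (left bar) and vehicle cells (right bar), 1 sample each, split by gene. Wnt9b takes 2.78% of the ligand sum in 4OHT cells and 44.9% in vehicle cells, and Fzd5 takes 22.5% of the Frizzled sum in 4OHT cells and 9.41% in vehicle cells.

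Among the receptors, Fzd5 rose to 1.17 FPKM after 4OHT, against 0.471 FPKM in vehicle cells, with q = 0.00165 in the authors' deposited table. Fzd5 encodes a seven-pass receptor known in the mouse from yolk sac vessel formation and as a partner of Wnt5a, whose own gene was listed at 0 here. Among the 335 rows called higher, Fzd5 ranked 77 by the ratio of FPKM values and 220 by the log2 ratio with the pseudocount. It lies on chromosome 1 of mm9 at 64777132 to 64784324, and none of the 5 other rows within 200 kb, all tested, was called. The nearest, Ccnyl1, 4.92 kb away, had 4.30 FPKM after 4OHT and 4.00 FPKM in vehicle cells.

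Fzd7 remained the leading Frizzled gene in both groups. It had 2.78 FPKM after 4OHT and 3.17 FPKM in vehicle cells, which was 53.3% and 63.4% of the Frizzled sum. Fzd4, the receptor for Norrin as well as Wnt proteins, had 0.806 FPKM after 4OHT and 0.956 FPKM in vehicle cells. Neither was called, at q = 1.00 for both in the authors' deposited table. In the order of levels Fzd5 stood above Fzd4 after 4OHT and below it in vehicle cells. The family sum was 5.21 FPKM in 4OHT cells and 5.00 FPKM in vehicle cells, and without Fzd5 it was 4.04 and 4.53 FPKM. Fzd9 had 0.206 and 0.209 FPKM in 4OHT and vehicle cells, Fzd8, Fzd1, Fzd3, Fzd6 and Fzd2 were below 0.1 FPKM in both, and Fzd10 was listed at 0 in both.

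Both co-receptors were expressed above any single Frizzled gene on the FPKM scale, Lrp5 by more than Lrp6. Lrp5 had 21.8 FPKM after 4OHT and 21.3 FPKM in vehicle cells. Lrp6 had 7.76 FPKM after 4OHT and 7.35 FPKM in vehicle cells. Both kept their order, with Lrp5 giving 73.8% of their sum in 4OHT cells and 74.4% in vehicle cells, and neither was called. Znrf3, a ubiquitin ligase that removes Frizzled receptors from the surface, had 1.92 FPKM after 4OHT and 1.85 FPKM in vehicle cells. Lgr4, an R-spondin receptor that restrains Znrf3, was at 0.127 and 0.131 FPKM, and its relative Lgr5, a marker of intestinal stem cells, at 0.0103 and 0.00395 FPKM, in 4OHT and vehicle cells.

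The 8 secreted inhibitors of the set had low values in both groups. Frzb, a secreted Wnt binder outside the naming rule, reached 1 FPKM and is given below. Dkk1, which blocks the LRP co-receptors, was the highest, with 0.145 FPKM after 4OHT and 0.0912 FPKM in vehicle cells. Dkk2 had 0.0423 and 0.0521 FPKM in 4OHT and vehicle cells, and Sfrp2, of a family that binds Wnt proteins directly, 0.0232 and 0.0179 FPKM. Sfrp1, Sfrp5 and Dkk3 stayed below 0.01 FPKM, and Dkk4 and Sfrp4 were listed at 0 in both groups. All 8 together summed to 0.229 FPKM after 4OHT and 0.177 FPKM in vehicle cells, and none was tested.

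Cytoplasmic members made up the bulk of the set's transcripts, and none was called. Dvl1 had 16.8 FPKM after 4OHT and 17.5 FPKM in vehicle cells, Dvl2 16.4 and 14.8 FPKM, and Dvl3 11.2 and 10.1 FPKM. The Naked genes, which restrain Dishevelled, were nearly silent, with Nkd1 at 0.0362 FPKM after 4OHT and 0.0596 FPKM in vehicle cells and Nkd2 at 0.00470 and 0.00500 FPKM. Ctnnb1, the gene of beta-catenin, stood at 132 FPKM after 4OHT and 125 FPKM in vehicle cells. Of the destruction complex, the scaffold gene Axin1 had 24.6 FPKM after 4OHT and 24.3 FPKM in vehicle cells. The kinase gene Gsk3b had 9.87 and 9.06 FPKM, and Apc 4.36 and 4.18 FPKM, in the same order. All 4 tested members of this family were slightly higher after 4OHT, by log2 ratios from 0.02 to 0.11. Axin2, the second scaffold gene and a much used readout of beta-catenin activity, was at 0.00655 FPKM after 4OHT and 0.00373 FPKM in vehicle cells and was not tested.

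TCF/LEF genes were low in both groups. Tcf7l2 had 0.736 FPKM after 4OHT and 0.799 FPKM in vehicle cells and was tested but not called. Tcf7l1 had 0.284 and 0.263 FPKM, Tcf7, a T cell factor gene that is itself a Wnt target, 0.278 and 0.297 FPKM, and Lef1 0.102 and 0.157 FPKM, in 4OHT and vehicle cells. Together the 4 genes summed to 1.40 FPKM after 4OHT and 1.52 FPKM in vehicle cells, against 47.9 and 45.2 FPKM for the 5 Tle genes.

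Among those co-repressors Tle3 led, with 23.0 FPKM after 4OHT and 23.2 FPKM in vehicle cells. Tle4 had 10.5 and 8.87 FPKM, Tle6, a shorter and divergent family member, 9.15 and 9.29 FPKM, and Tle1 2.27 and 2.13 FPKM, in 4OHT and vehicle cells. Tle2 had 2.97 FPKM after 4OHT and 1.798 FPKM in vehicle cells, a ratio of 1.65, and missed the threshold with q = 0.0531 in the authors' deposited table. Tle2 and Tle6 lie 0.059 kb apart on chromosome 10 of mm9, Tle2 at 81038032 to 81053590, and strandedness of the libraries is not stated in the labels. Aes, a short relative of the Tle genes 8.92 kb to the other side, was the most abundant gene of the stretch, with 192 FPKM after 4OHT and 179 FPKM in vehicle cells. None of the 14 other rows within 200 kb of Tle2 was called.

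**Figure D4:**
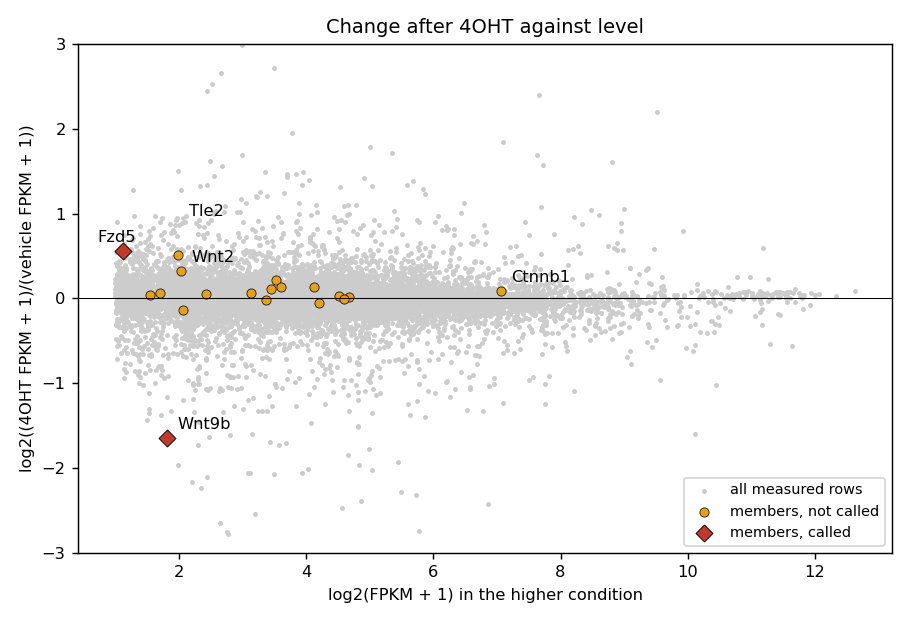
Log2 ratio of 4OHT over vehicle, with 1 FPKM added to each, against the level in the higher group for the measured rows (grey), members not called (orange) and members called (red diamonds). Wnt9b lies at -1.65 and Fzd5 at 0.56, while Ctnnb1 and the other well expressed members lie along 0. The 51 rows beyond 3 on either side, 44 of them listed at 0 in a group, fall outside the axis.

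For changes of 1.2 to 2-fold, the share of rows that the authors' test called differed with level. Between 1 and 5 FPKM, 1 of 510 tested rows with a 1.2 to 1.5-fold change was called, against 33.7% of rows changed 1.5 to 2-fold and 77.4% of those changed 2 to 3-fold. Above 20 FPKM, 11.0% of rows changed 1.2 to 1.5-fold were called, 81.2% of those changed 1.5 to 2-fold and 77.6% of those changed 2 to 3-fold. At 3-fold or more the share was 80% between 1 and 5 FPKM and 52.2% above 20 FPKM. The 11 tested members of at least 5 FPKM differed by at most 1.18-fold, a size at which no tested row of at least 0.5 FPKM was called. For these members a missed threshold therefore does not show equal levels.

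Genes of the pathway outside the naming rule were read from 4 lists with 86 entries, of which 54 were measured and 62 tested. Of these, 2 rose and 2 fell, 6.45% of those tested and close to the 5.91% of all tested rows, so the count gives no result about the lists. The median log2 ratio of the measured entries was 0.11. For secretion and co-receptors, 5 of 22 genes were measured and none was called. Wls, the carrier that brings Wnt proteins to the cell surface, had 69.1 FPKM after 4OHT and 60.8 FPKM in vehicle cells. Frzb, a secreted Wnt binder, had 1.69 and 1.13 FPKM, Lrp4, an LRP relative, 1.73 and 2.36 FPKM, and Rspo1, an R-spondin, 1.75 and 2.28 FPKM, in 4OHT and vehicle cells. In that list Porcn, the enzyme that attaches the lipid to Wnt proteins, was below 1 FPKM, with 0.267 FPKM after 4OHT and 0.573 FPKM in vehicle cells. Ryk, also below 1 FPKM, had 0.117 FPKM after 4OHT and 0.310 FPKM in vehicle cells. Neither was called, at q = 0.187 for Porcn and q = 0.0985 for Ryk in the authors' deposited table.

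Of 26 cytoplasmic genes 20 were measured and 22 tested, and 1 rose, 4.55% of those tested. Among all tested rows 2.8% were called higher and 5.91% in either direction, so the count gives no result about the list. Cxxc5, a zinc finger protein that binds Dishevelled and restrains the pathway, rose to 26.7 FPKM after 4OHT, against 15.3 FPKM in vehicle cells, with q = 0.00165 in the authors' deposited table. Csnk1a1, the casein kinase that primes beta-catenin, was the most abundant gene of the list, with 149 FPKM after 4OHT and 144 FPKM in vehicle cells. Csnk1e had 37.4 and 30.0 FPKM, Ctnnbip1, an inhibitor of beta-catenin binding to TCF, 2.56 and 1.98 FPKM, and Amer1 4.98 and 4.13 FPKM, in 4OHT and vehicle cells, and none of these was called.

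Of 16 nuclear genes 15 were measured and tested, and 1 rose, 6.67% of those tested. Over all tested rows 2.8% were called higher and 5.91% in either direction, and a count of 1 gives no result about the list. Bcl9l, which links beta-catenin to Pygopus, rose to 4.41 FPKM after 4OHT, against 2.79 FPKM in vehicle cells, at q = 0.0227 in the authors' deposited table. Its paralog Bcl9 had 4.04 and 3.25 FPKM, Hbp1, a repressor of TCF-driven transcription, 32.0 and 23.3 FPKM, and the kinase gene Tnik 5.72 and 4.20 FPKM, in 4OHT and vehicle cells. None of these was called.

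In the planar polarity and calcium list 14 of 22 genes were measured and 16 tested, and 2 fell, 12.5% of those tested, where 3.11% of all tested rows were called lower. Both belong to the Celsr family of seven-pass cadherins, and a count of 2 gives no result about the list. Celsr1 fell to 5.54 FPKM after 4OHT, against 8.98 FPKM in vehicle cells, with q = 0.00165 in the authors' deposited table. Celsr3 fell to 3.35 FPKM after 4OHT, against 4.99 FPKM in vehicle cells, with q = 0.0182 there. Camk2d had 2.87 and 2.04 FPKM, Nfatc1 14.0 and 11.5 FPKM, and Prickle3 8.39 and 7.25 FPKM, in 4OHT and vehicle cells, and none was called. Rhoa, a GTPase with many uses besides this branch, led the list with 172 FPKM after 4OHT and 183 FPKM in vehicle cells.

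**Figure D5:**
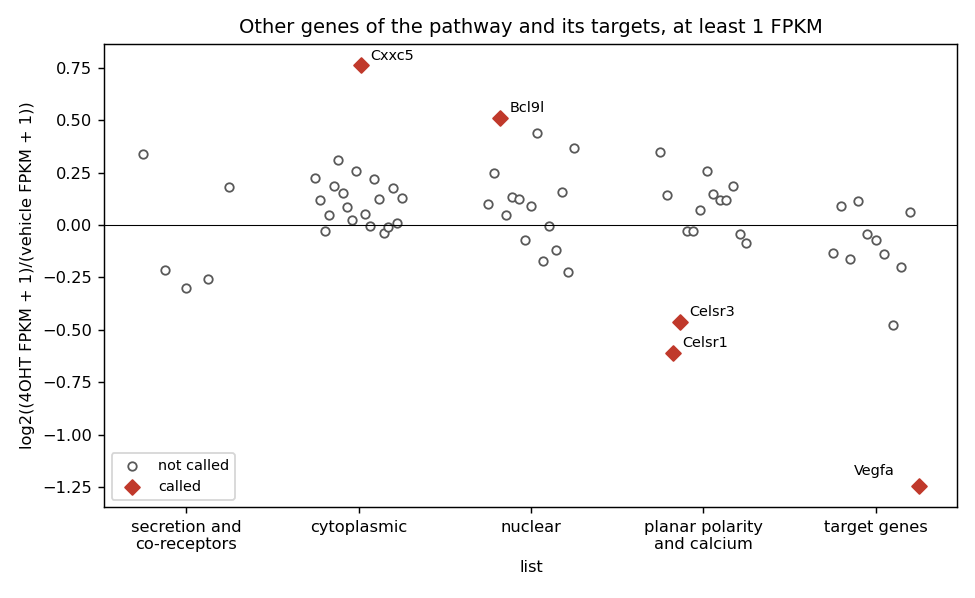
Log2 ratio of 4OHT over vehicle, with 1 FPKM added to each, for measured genes of 5 lists outside the naming rule, 1 point per gene. Called genes are red diamonds: Cxxc5 at 0.76 and Bcl9l at 0.51 lie above 0, and Celsr1 at -0.61, Celsr3 at -0.46 and Vegfa at -1.25 lie below it.

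Known target genes of the canonical branch were read from a further list. Of 30 listed genes 11 were measured and 16 tested, and 1 fell and none rose. That is 6.25% of those tested, where 5.91% of all tested rows were called and 3.11% were called lower. A count of 1 gives no result about the list. The measured genes had their median log2 ratio at -0.14. The gene that fell was Vegfa, the main growth factor of blood vessels, which also answers to hypoxia and many other signals, with 19.4 FPKM after 4OHT and 47.4 FPKM in vehicle cells and q = 0.00165 in the authors' deposited table. Myc had 190 FPKM after 4OHT and 209 FPKM in vehicle cells. Plaur, the urokinase receptor gene, had 16.2 and 22.9 FPKM, Ppard 4.22 and 5.01 FPKM, and Fosl1 1.40 and 1.69 FPKM, in 4OHT and vehicle cells, and none of these was called. Some genes that report the branch in many tissues were near the bottom of the table. Sp5 was listed at 0, and Notum and Rnf43 lay below 0.1 FPKM. Axin2, Lgr5 and Nkd1 were among the members at the low levels given above. Other targets besides Myc were well expressed: Birc5 had 95.3 and 105 FPKM and Cd44 31.1 and 29.1 FPKM, in 4OHT and vehicle cells, and neither was called.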

How the data were processed

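RNA was column-purified with DNase digestion and made into TruSeq libraries, per the labels' protocols. Build mm9 and the tools Cuffdiff 2.0.2, Bowtie2 2.0.0.7 and CASAVA 1.8.2 stand in the submitters' processing notes, without their roles. The authors deposited 1 table with FPKM per gene and group and, per the file headers, a p-value and q-value per gene. Their scaling between groups is not stated. Samples were grouped by their labels, with 1 sample each, so no test was run here: every call is the authors' q under 0.05 with status OK, over 11953 tested rows.

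Members were matched by symbol in single-symbol rows (0 joined rows matched). Measured meant at least 1 FPKM in the higher group, and ratios used log2 with a pseudocount of 1 FPKM. All measured or called members were named, and from each pathway list the called genes, the 3 largest changes among measured genes not called, and the highest gene. Porcn, Ryk, Birc5, Cd44, Wnt9b's neighbours and Tle2's neighbours were added after their values were seen. Of the marker entries, Hba-a1 matched no row. Members and lists were chosen with earlier results of these data known. Promoters on GRCm38.p6 gave sequences only, and coordinates of rows are mm9, starts counted from 1. Alternatives were other q thresholds, floors, pseudocounts and scalings. Tables were read with Python 3.11.15 and pandas 2.3.3, and the code was tested on simulated data.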

Additional observations from a re-analysis of the deposited data

How the results depend on the processing

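The fall of Wnt9b and the rise of Fzd5 were called at q thresholds of 0.01, 0.05 and 0.1 and by the table's second flag, which was added as an alternative after seeing the data and asks for a 1.5-fold change. At q under 0.1 the members called higher came to 2, with Tle2 added. The other pathway genes called lower came to 3 at that threshold, with Ryk added. A 1.5-fold rule on FPKM + 1 left 0 members higher, and a floor of 5 FPKM left 0 higher and 0 lower, since both genes lie below it. Of the other pathway genes, 2 higher and 2 lower, a q of 0.01, the 1.5-fold rule and the floor of 5 FPKM each left 1 higher (Cxxc5) and 1 lower (Celsr1), and the second flag left 1 lower (Celsr1). The members' median log2 ratio ran from 0.05 to 0.08 over its alternatives. With a pseudocount of 0.1 or 0.01 FPKM the ratio was -3.59 or -4.32 for Wnt9b and 1.16 or 1.30 for Fzd5. Equal FPKM sums moved all ratios by at most 0.02 and turned the sign of Tle3 and Tle6, neither called. No paired analysis was possible because each group has 1 deposited sample, and for the same reason no replicate could be left out. Depth is unknown, and no member below 0.1 FPKM in both groups was tested by the authors.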

Other observations

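Some ratios recur in the table. Among rows above 0 in both groups, with ratios of 4OHT over vehicle FPKM rounded to 4 decimals, the most frequent was 0.853, in 66 rows with a median level of 0.00853 FPKM in the higher group and a range up to 257 FPKM. The next was 1.706, which is 2 times the first, in 22 rows, none above 0.0530 FPKM in the higher group. After it came 0.9778, 1.15 times the first, in 13 rows with a median of 56.7 FPKM. Members near 0, such as Axin2, Lgr5 and the Sfrp genes, had values below 0.03 FPKM, and no direction was read from their ratios.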
